A study of Homo sapiens with 6 samples.

Results

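The genes that encode the enzymes placing and removing DNA methylation were followed in endoderm derived from HuES8. HuES8 is an established line of human embryonic stem cells. The 8 members, DNMT1, DNMT3A, DNMT3B, DNMT3L, TET1, TET2, TET3 and UHRF1, were chosen by gene symbol from 58830 genes in the deposited table. RNA-seq of total RNA gave 6 libraries in 2 groups of 3. KD was endoderm with GATA6-AS1 knocked down, and DE was wild-type endoderm. Both groups were taken through the same 3 days of differentiation. The medium was DMEM-F12 containing 0.2% BSA and Activin A at 100 ng/mL, and 2.5 µM of the GSK3 inhibitor CHIR was present on day 1. The sources used here give neither the means of knockdown nor any control construct in DE. The labels do not tie replicates to separate cultures, and the p-values therefore measure only the spread between libraries, which may be technical.

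Methylation of cytosine at CG dinucleotides is laid down on unmethylated DNA by DNMT3A and DNMT3B, with DNMT3L as a catalytically inactive cofactor. After replication UHRF1 binds hemimethylated DNA and recruits DNMT1, which copies the mark to the new strand. The TET dioxygenases oxidise methylcytosine, and the oxidised base is then diluted by replication or cut out by base excision repair. Human pluripotent cells are known for high DNMT3B and TET1, and both are known to decline as such cells differentiate.

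The values were TPM, read counts scaled by the authors for gene length and library total. For most genes of few reads, the length that fitted was that of all annotated exons together. That length is 4630 bases for DNMT3B, 9796 for DNMT1, 12020 for DNMT3A and 16474 for TET2, and it can exceed that of the RNA present. Orders, shares and ratios between genes below depend on these lengths, which are the same in both groups. The knocked-down RNA, GATA6-AS1, had 180, 163 and 126 TPM in KD, against 389, 421 and 313 TPM in DE. In each library an estimated 18641346 to 24511136 reads lay behind the 37138 genes whose symbols matched the GENCODE 29 annotation. Mitochondrially encoded transcripts took 28.3%, 28.8% and 36.2% of TPM in KD and 28.5%, 24.6% and 38.04% in DE, so replicate 3 stood apart in both groups and most members had their lowest value there. Of 9 definitive endoderm markers, 6 fell in KD and none rose, and none had a mean under 1 TPM. Of 8 pluripotency markers, 5 passed as higher and none as lower. Among those that did not pass, TDGF1 had a lower mean in KD (624 and 724 TPM). LIN28A had nearly equal means (1006 and 1013 TPM), and PRDM14 had a higher one in KD (50.4 and 37.2 TPM). With the replicate number as a block in the fit, all 9 endoderm markers were lower and 6 of the pluripotency markers higher. Their summed levels ran from 3212 to 3691 TPM in KD and from 2454 to 3110 TPM in DE for pluripotency, and from 18173 to 19961 TPM in KD and from 25180 to 28731 TPM in DE for endoderm. Of the other markers tested, mesoderm had 1 of 4 higher and 1 lower, neuroectoderm none of 3, trophoblast and amnion 1 of 1 lower, and feeder cells 1 of 3 higher; MESP1, FOXF1, SOX1, TFAP2A, CGA, KRT7 and DCN were under 1 TPM. Summed levels of these 4 lists were 150.4 to 165 TPM in KD and 116 to 152 TPM in DE for mesoderm, 135 to 156 TPM in KD and 94.7 to 135 TPM in DE for neuroectoderm, 15.4 to 20.0 TPM in KD and 36.9 to 43.7 TPM in DE for trophoblast and amnion, and 73.6 to 79.2 TPM in KD and 46.1 to 55.3 TPM in DE for feeder cells. Some of these sums followed 1 gene. In the feeder list, the gene that passed was THY1, with means of 41.4 TPM in KD and 13.04 TPM in DE. Whether its RNA came from feeder cells was not tested. COL1A1 was lower in KD (14.4 and 18.1 TPM), and COL1A2 differed little (20.9 and 19.3 TPM). Of the tested mesoderm markers, KDR had a higher mean in KD (122 and 83.9 TPM). TBX6, HAND1 and PDGFRA had lower means in KD. Most of the endoderm sum was CER1 (means of 16814.5 TPM in KD and 23570.1 TPM in DE). In such bulk libraries, fewer cells of a type and less RNA per cell cannot be told apart.

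Of the 8 members, DNMT3B, the de novo methyltransferase that predominates in pluripotent cells, was 1.43 times as high in KD as in DE. It was the only member to pass the test over all genes. DNMT3A, the other active de novo enzyme, had a mean 1.23 times as high in KD, and UHRF1 a mean 0.789 times as high. Neither passed in that test, which had group as the only term on the deposited TPM of all 6 libraries. Each passed when the replicate number was added as a block, and in some other fits given below. DNMT1, TET1 and TET3 had nearly equal means in the groups. TET2 was low in every library and DNMT3L rested on few reads.

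The start regions of DNMT3B, DNMT3A and UHRF1, the members that passed in at least 1 of these fits, are shown for their content of CG. This is the dinucleotide whose methylation the encoded proteins place or help to copy. Each line gives 250 bases upstream of a start site in the RefSeq table for GRCh38.p14, which held 18 windows for 7 of the 8 members, DNMT3L being the other. For each gene the window nearest to its GENCODE 29 gene start that holds no annotated exon base was taken. Letters run 5′ to 3′ on the gene's strand and CG is in capitals.
DNMT3B, chr20:32779602-32779851, plus strand: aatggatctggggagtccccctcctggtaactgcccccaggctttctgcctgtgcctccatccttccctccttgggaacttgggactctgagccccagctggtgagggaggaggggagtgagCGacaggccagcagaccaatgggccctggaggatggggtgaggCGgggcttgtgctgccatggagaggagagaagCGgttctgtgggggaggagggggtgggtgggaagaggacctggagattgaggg
DNMT3A, chr2:25342591-25342840, minus strand: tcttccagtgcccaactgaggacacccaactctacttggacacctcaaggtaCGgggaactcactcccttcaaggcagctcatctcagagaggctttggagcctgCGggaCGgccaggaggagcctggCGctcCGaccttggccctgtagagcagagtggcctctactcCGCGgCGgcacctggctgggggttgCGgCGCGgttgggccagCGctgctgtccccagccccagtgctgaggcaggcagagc
UHRF1, chr19:4909894-4910143, plus strand: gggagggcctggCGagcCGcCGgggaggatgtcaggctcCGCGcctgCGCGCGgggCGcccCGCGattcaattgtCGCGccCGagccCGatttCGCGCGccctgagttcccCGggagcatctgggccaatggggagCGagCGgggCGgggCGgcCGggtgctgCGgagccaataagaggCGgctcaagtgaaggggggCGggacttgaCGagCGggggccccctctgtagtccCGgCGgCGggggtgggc
The DNMT3B window held 3 CG, fewer than most of the 35114 windows of this length in the table, whose median was 11. It precedes a start site 17467 bases inside the gene, so it is not the region of the gene's first start. The DNMT3A window, at the gene start, held 12 CG, near the median, and the UHRF1 window, 7064 bases inside the annotated gene, held 32 CG, more than 90.5% of the windows. The other DNMT3A windows without exon bases, 665 and 90275 bases from the gene start, held 33 and 25 CG and are not shown. The GC box GGGCGG, read on either strand and with overlaps counted, occurred 3 times in the UHRF1 window and in neither of the other windows shown. Of all windows, 42.6% held it. CCAAT occurred 2 times in the UHRF1 window, 1 time in that of DNMT3B and not in that of DNMT3A (32.01% of all windows). The E2F letters TTTNNCGC occurred 1 time in the UHRF1 window and in neither of the others (5.92% of all windows), and the octamer ATTTGCAT in none of them (1.63% of all windows). These matches describe letters and not bound sites.

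DNMT3B (ENSG00000088305.18, chromosome 20 from 32762385 to 32809356 on the plus strand of GRCh38) had 604, 652 and 595 TPM in KD libraries, against 437, 473 and 383 TPM in DE libraries. Every KD library lay above every DE library. The mean was 617 ± 30.8 TPM in KD and 431 ± 45.2 TPM in DE (SD, n = 3 each). On the scale of log2(TPM + 1) it rose by 0.52 (SE 0.103, 95% interval 0.28 to 0.76), which passed the test over 17711 genes (limma adjusted p = 0.0448). That change was larger in size than those of 89.01% of the genes tested. Of those genes, 3.27% passed in either direction, 1.77% as higher and 1.5% as lower, beside 1 of the 7 members tested. With the replicate number added as a block, its limma adjusted p was 0.00428.

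The call of DNMT3B did not hold in the fits that left out 1 library. Without any single library its log2 change was between 0.44 and 0.59 and its limma adjusted p between 0.0520 and 0.215, so that it did not pass in any of these 6 smaller fits. Of all genes, 0.96%, 0.491% and 1.42% passed without KD replicates 1, 2 and 3, and 0.559%, 1.2% and 3.44% without DE replicates 1, 2 and 3. Without replicate 3 of both groups DNMT3B passed (limma adjusted p = 0.0252), where 6.84% of all genes did. Within each replicate number, KD was 1.38, 1.38 and 1.55 times DE. An exact permutation test on TPM, 2-sided, gave p = 0.1, the smallest p this design allows. Between 11456 and 22260 estimated reads lay behind each value, so counting error was small beside the spread between libraries. No annotated gene overlaps DNMT3B. As described above, 5 of 8 pluripotency markers also passed as higher in KD, though TDGF1 had a lower mean, and 6 of 9 endoderm markers passed as lower. The part of these marker changes in the rise of DNMT3B was not tested.

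DNMT3A (ENSG00000119772.16, chromosome 2 from 25227855 to 25342590, minus strand) had 40.1, 41.5 and 38.9 TPM in KD and 33.2, 34.2 and 30.8 TPM in DE. The groups did not overlap. Its mean was 40.2 ± 1.31 TPM in KD and 32.7 ± 1.75 TPM in DE (SD, n = 3 each). The log2 change of 0.29 (SE 0.0926, 95% interval 0.07 to 0.51) did not pass (limma adjusted p = 0.178). Adding the replicate block, it did pass (limma adjusted p = 0.0298). In that fit 12.5% of all genes passed, 5.88% as higher and 6.62% as lower, beside 3 of the 7 members. DNMT3A also passed with TPM recomputed without mitochondrial genes (limma adjusted p = 0.0350), where 8.8% of all genes passed. Of all genes tested, 10.1% lay higher in every KD library than in every DE library and 10.7% lay lower, against 2 and 1 of the 7 members.

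DNMT3L (ENSG00000142182.8, chromosome 21 from 44246339 to 44262216, minus strand) stood at 0.477, 0.496 and 0.399 TPM in KD and at 0.902, 0.670 and 0.416 TPM in DE. These values corresponded to 5, 6 and 6 reads in KD and 12, 8 and 5 reads in DE. The groups overlapped, and the gene was below the limit of 1 TPM in at least 3 libraries and was not tested. The exact 95% Poisson interval of the summed reads, 9.90 to 27.2 for 17 reads in KD and 16.2 to 36.9 for 25 reads in DE, covers counting error only, and a difference was not detectable at this depth. An antisense gene shares 12.96% of the exon length of DNMT3L. With the strand setting not given, reads from those bases could belong to either gene.

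**Figure D1:**
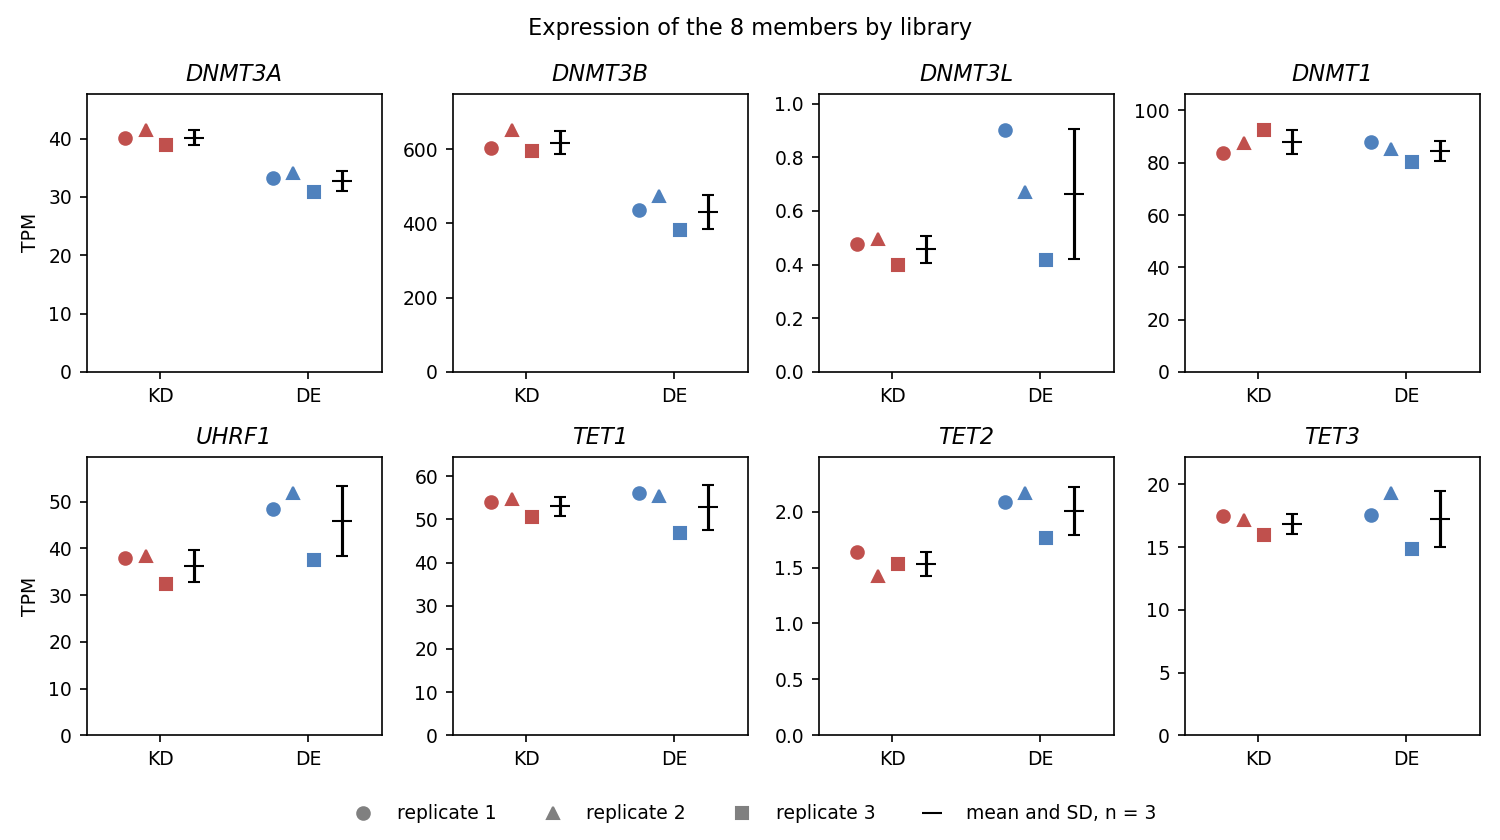
TPM (vertical axes, each from 0 and on its own scale) of the 8 members in the 3 KD and 3 DE libraries, with symbols for the replicate number and bars for the mean and SD. DNMT3B lies between 595 and 652 TPM in KD and between 383 and 473 TPM in DE; DNMT3A and TET2 also separate the groups, and the other 5 members overlap.

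Of the maintenance pair, DNMT1, the enzyme that copies methylation after replication, had 83.6, 87.5 and 92.6 TPM in KD and 88.1, 85.2 and 80.4 TPM in DE. The groups overlapped, with a mean of 87.9 ± 4.54 TPM in KD and 84.6 ± 3.84 TPM in DE (SD, n = 3 each). Its log2 change was 0.05, with a 95% interval of -0.15 to 0.26 (limma adjusted p = 0.893). The locus (ENSG00000130816.15, chromosome 19 from 10133345 to 10231286, minus strand) shares 83 exonic bases with S1PR2, 0.847% of its exon length.

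UHRF1 (ENSG00000276043.4, chromosome 19 from 4903080 to 4962154, plus strand) had 38.0, 38.3 and 32.3 TPM in KD and 48.5, 51.8 and 37.4 TPM in DE. The groups overlapped through DE replicate 3, which lay below the first 2 KD libraries. The mean was 36.2 ± 3.38 TPM in KD and 45.9 ± 7.53 TPM in DE (SD, n = 3 each). The log2 change of -0.33 (SE 0.145, 95% interval -0.67 to 0.02) did not pass (limma adjusted p = 0.355). It passed with the replicate block (limma adjusted p = 0.0320), and KD was 0.785, 0.739 and 0.863 times DE within replicate numbers 1, 2 and 3. It also passed after quantile normalization (limma adjusted p = 0.0159), after median-ratio scaling (limma adjusted p = 0.0156) and with TPM recomputed without mitochondrial genes (limma adjusted p = 0.0393). In these fits 9.8%, 9.91% and 8.8% of all genes passed. Without single libraries its log2 change lay between -0.46 and -0.23 and it did not pass. Without replicate 3 of both groups UHRF1 passed (limma adjusted p = 0.0340), where 6.84% of all genes did.

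Set against DNMT1 in the same library, UHRF1 was lower in KD. The ratio of UHRF1 to DNMT1 was 0.455, 0.438 and 0.349 in KD, against 0.550, 0.608 and 0.465 in DE, without overlap. It averaged 0.414 ± 0.0570 in KD and 0.541 ± 0.0720 in DE (SD, n = 3 each; 2-sided exact permutation p = 0.1, the smallest possible). A ratio within a library does not depend on the share taken by other RNAs. Both genes are known to be transcribed mainly in S phase. Of 15 S phase replication genes tested, none passed, and their summed level ran from 1895 to 2348 TPM in KD and from 1829 to 2442 TPM in DE. With the replicate block 1 of the 15 passed, beside 6.62% of all genes passing as lower in that fit. It was MCM6, a subunit of the replicative helicase, lower in KD (295 ± 29.8 TPM in KD and 362 ± 53.6 TPM in DE, limma adjusted p = 0.0245).

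**Figure D2:**
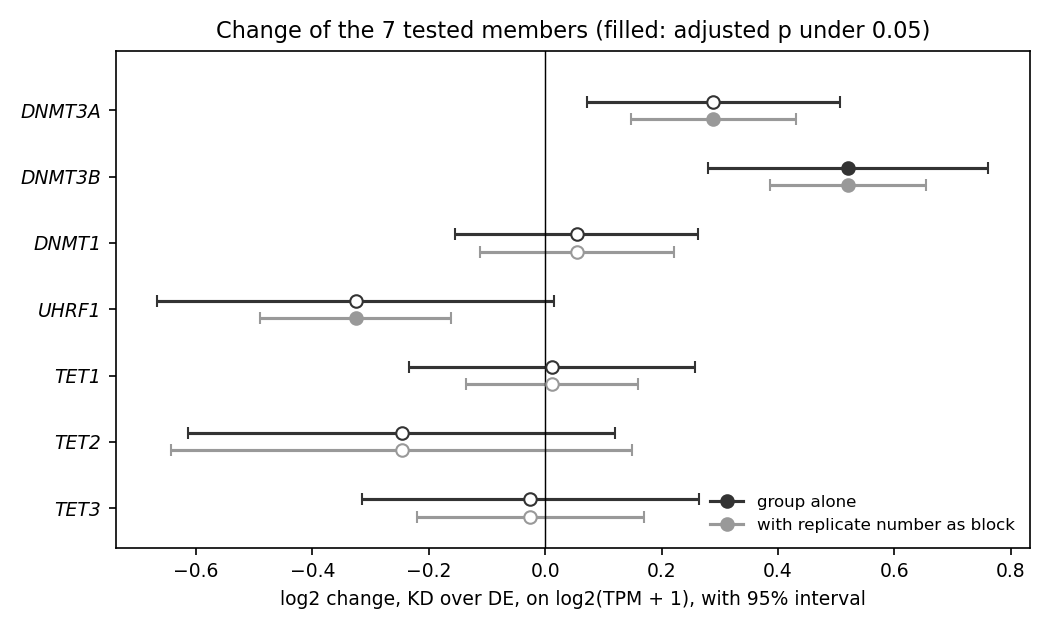
Log2 change of KD over DE on log2(TPM + 1) for the 7 members tested, with 95% intervals from limma with group alone (dark) and with the replicate number as a block (grey); filled points have an adjusted p under 0.05. DNMT3B at 0.52 is filled in both fits, and DNMT3A at 0.29 and UHRF1 at -0.33 are filled with the block.

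The TET genes did not pass in any fit. TET1, the dioxygenase prominent in stem cells, had 54.04, 54.6 and 50.6 TPM in KD and 56.1, 55.3 and 46.9 TPM in DE. The mean was 53.1 ± 2.20 TPM in KD and 52.8 ± 5.12 TPM in DE (SD, n = 3 each), a log2 change of 0.01. Its 95% interval was -0.23 to 0.26 (limma adjusted p = 0.989), and -0.14 to 0.16 with the replicate block. TET1 (ENSG00000138336.8) lies on chromosome 10 from 68560656 to 68694482 on the plus strand.

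TET3, the dioxygenase that also acts in the zygote (known from mouse), had 17.5, 17.2 and 15.9 TPM in KD and 17.6, 19.3 and 14.9 TPM in DE. Its groups overlapped and its log2 change was -0.03 (95% interval -0.32 to 0.26; limma adjusted p = 0.978). It is encoded on chromosome 2 from 73986404 to 74108176, plus strand (ENSG00000187605.15). TET2, a gene often mutated in blood cancers, had 1.64, 1.43 and 1.53 TPM in KD and 2.09, 2.17 and 1.77 TPM in DE, from 152 to 246 reads a library. The groups did not overlap, KD being the lower. The log2 change of -0.25 (SE 0.156, 95% interval -0.61 to 0.12) did not pass (limma adjusted p = 0.572, and 0.385 with the replicate block). The pseudocount of 1 narrows the change of a gene at this level, and with a pseudocount of 0.1 the log2 change was -0.37 (limma adjusted p = 0.587). The antisense gene TET2-AS1 inside the locus (ENSG00000168769.13, chromosome 4 from 105145875 to 105279816, plus strand) was listed at 0 in all 6 libraries.

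Over the 7 members tested, 1 passed as higher and none passed as lower. Their median log2 change was 0.01, beside -0.0050 over all genes tested. With the replicate block, 2 passed as higher (DNMT3B and DNMT3A), 1 passed as lower (UHRF1) and 4 did not pass. With no filter on low values or without the variance trend, no member passed, and DNMT3B had a limma adjusted p of 0.125 and 0.0801. Of all genes, 0.646% and 3.31% passed in these fits, and 0.598% passed at a threshold of 0.01 in the first one described, where no member did. By level in KD, scaled to annotated exon length, the order was DNMT3B, DNMT1, TET1, DNMT3A, UHRF1, TET3, TET2 and DNMT3L, with no overlap between neighbours. By level in DE, UHRF1 stood above DNMT3A, and TET1 and UHRF1 overlapped. DNMT3B was higher than 99.3% of the genes tested in KD and 98.9% in DE, against 84.4% and 84.2% for TET1.

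Within the set, the make-up of the RNA tilted towards DNMT3B in KD. DNMT3B made up 72.0%, 73.02% and 71.9% of the summed TPM of the 8 members in KD, against 64.0%, 65.5% and 64.3% in DE. The groups did not overlap and differed by 7.69 percentage points. DNMT3B was 7.22, 7.46 and 6.42 times DNMT1 in KD and 4.97, 5.55 and 4.76 times DNMT1 in DE. The share of DNMT3B in the sum of DNMT3A and DNMT3B was 93.9% ± 0.124 in KD and 92.9% ± 0.349 in DE (SD, n = 3 each), also without overlap. The exact permutation p of each of these 3 proportions was 0.1, the smallest possible.

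TET1 made up 73.9%, 74.6% and 74.3% of the TET sum in KD and 74.04%, 72.04% and 73.8% in DE, and the groups overlapped (2-sided exact permutation p = 0.2). The TET sum itself was 71.5 ± 2.98 TPM in KD and 72.02 ± 7.40 TPM in DE (SD, n = 3 each). The sum of DNMT1, DNMT3A and DNMT3B was 745 ± 31.3 TPM in KD and 548 ± 49.8 TPM in DE, without overlap. Most of it was DNMT3B alone, with means of 617 TPM in KD and 431 TPM in DE. The DNMT3L to DNMT3B ratio was 0.000741 in KD and 0.00152 in DE, without overlap between the groups, but its upper term rested on 5 to 12 reads a library.

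**Figure D3:**
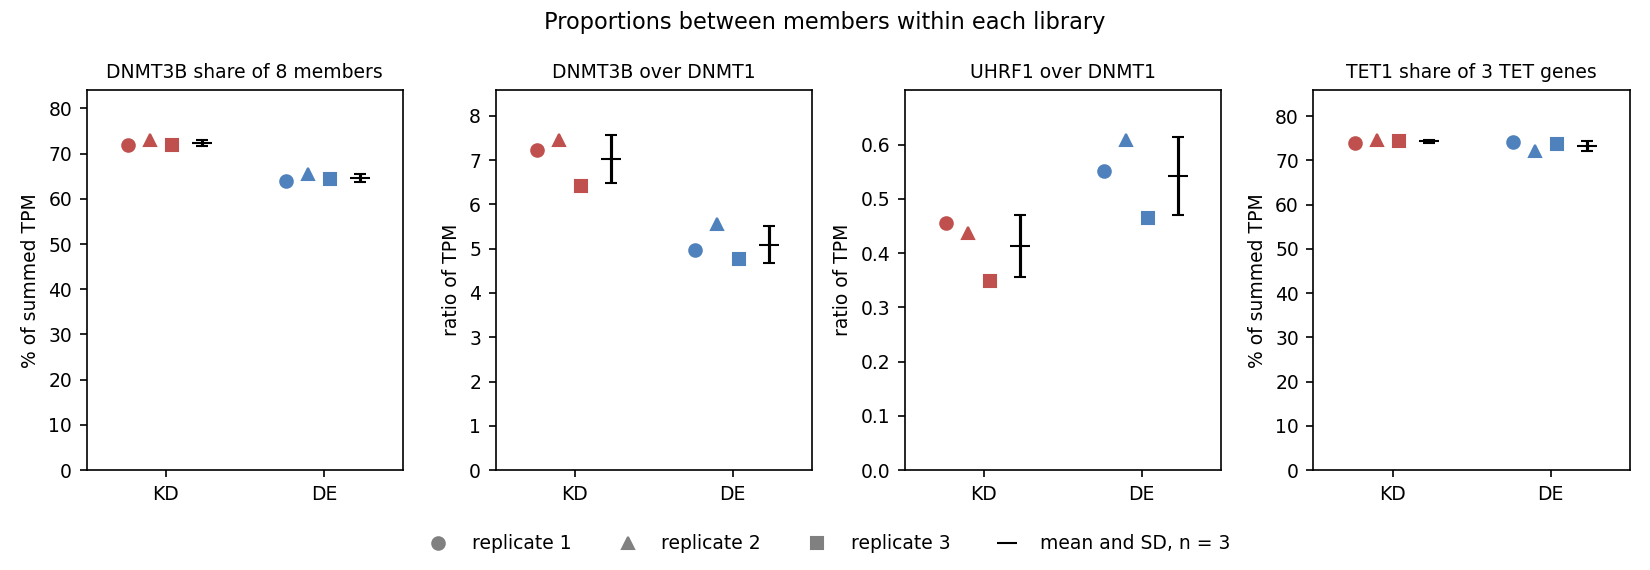
Proportions between members within each of the 3 KD and 3 DE libraries, with mean and SD: the share of DNMT3B in the summed TPM of the 8 members, the ratios of DNMT3B and of UHRF1 to DNMT1, and the share of TET1 in the TET sum. The first 3 separate KD from DE (DNMT3B near 72.3% in KD and 64.6% in DE), and the TET1 share overlaps.

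Other genes of the pathway were read from 8 lists. Of 75 such genes tested, 2 passed, 2.67% beside 3.27% of all genes, and 12 (16% beside 12.5%) passed with the replicate block. The first of the 2 was GADD45G, a stress-response gene of a family linked to active demethylation, with 6.98, 6.62 and 5.80 TPM in KD and 15.5, 12.7 and 16.4 TPM in DE. It fell by 1.09 on the log2 scale (limma adjusted p = 0.0112). The second was CXXC5, a zinc-finger protein that binds unmethylated CG, with 93.5, 86.3 and 76.2 TPM in KD and 49.4, 55.5 and 43.5 TPM in DE. It rose by 0.78 (limma adjusted p = 0.0230). Neither overlapped between groups, but neither passed without KD replicate 2 or without DE replicate 1, and CXXC5 did not pass without KD replicate 1 or with no filter on low values.

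Among 15 genes of oxidised base repair and demethylation, GADD45G fell and the other 14 did not pass. The endonuclease APEX1 (409 ± 14.4 TPM in KD and 347 ± 5.004 TPM in DE; SD, n = 3 each) and PARP1, a sensor of strand breaks (242 ± 8.15 TPM in KD and 209 ± 13.4 TPM in DE), passed as higher with the replicate block (limma adjusted p = 0.0358 and 0.0483). TDG, the glycosylase that removes oxidised methylcytosine, had 53.9 ± 4.26 TPM in KD and 52.8 ± 9.73 TPM in DE (log2 change 0.04). None of 13 maintenance and recruitment partners passed. Among them were TRIM28, a corepressor of retroelements (478 ± 35.8 TPM in KD and 457 ± 49.6 TPM in DE), and PCNA, the replication clamp (365 ± 65.7 TPM in KD and 350.3 ± 66.9 TPM in DE). With the replicate block USP7, a deubiquitinase that acts on DNMT1 and UHRF1, was higher (106 ± 7.09 TPM in KD and 88.9 ± 12.3 TPM in DE; limma adjusted p = 0.0441).

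None of 8 methyl-CpG readers passed, with or without the replicate block, and their median log2 change was -0.09. MBD1, MBD2 and ZBTB38 lay lower in every KD library than in every DE library, 3 of 8 beside 10.7% of all genes tested. MBD2 had a log2 change of -0.28 (limma adjusted p = 0.242). MBD1, a repressor that binds methylated CG, had 35.7 ± 0.820 TPM in KD and 42.8 ± 2.92 TPM in DE (SD, n = 3 each) without overlap, a log2 change of -0.25 (limma adjusted p = 0.255). ZBTB4, another reader, had 32.2 ± 0.847 TPM in KD and 34.0 ± 1.87 TPM in DE. Of 7 CXXC domain genes tested, CXXC5 was the single one that passed. FBXL19, an F-box protein of that group, had 88.7 ± 5.31 TPM in KD and 93.9 ± 19.4 TPM in DE.

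Of 12 genes that supply the methyl donor, none passed, with a median log2 change of 0.16. MAT2A, which makes S-adenosylmethionine, had 186, 179 and 167 TPM in KD and 145, 149 and 124 TPM in DE. The groups did not overlap (log2 change 0.35, limma adjusted p = 0.142), and MAT2A passed with the replicate block (limma adjusted p = 0.0138). MAT2B, its regulatory subunit, and MTHFD2, a mitochondrial folate enzyme, also passed as higher with the block (limma adjusted p = 0.0483 and 0.0236). AHCY, which clears the product of methylation, had 245 ± 52.5 TPM in KD and 217 ± 45.7 TPM in DE (SD, n = 3 each).

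Oxoglutarate is the cosubstrate of the TET enzymes. None of 6 genes of its supply passed. IDH1 had 366 ± 39.7 TPM in KD and 389 ± 60.8 TPM in DE (SD, n = 3 each), and IDH2 had 63.5 ± 5.47 TPM in KD and 65.4 ± 9.03 TPM in DE.

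Germline genes that promoter methylation is known to silence were nearly absent. Of 14 such genes, 12 had a mean under 1 TPM, DAZL and MAEL among them. The other two, STK31 and BRDT, were tested. STK31 had 2.90, 2.23 and 2.12 TPM in KD and 5.06, 5.37 and 3.36 TPM in DE. BRDT, a bromodomain protein of the testis, had 2.74, 1.91 and 2.17 TPM in KD and 4.32, 3.67 and 3.61 TPM in DE. Both were lower in every KD library than in any DE library. They did not pass with group alone (limma adjusted p = 0.121 and 0.120), and passed with the replicate block (limma adjusted p = 0.0325 and 0.0390).

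**Figure D4:**
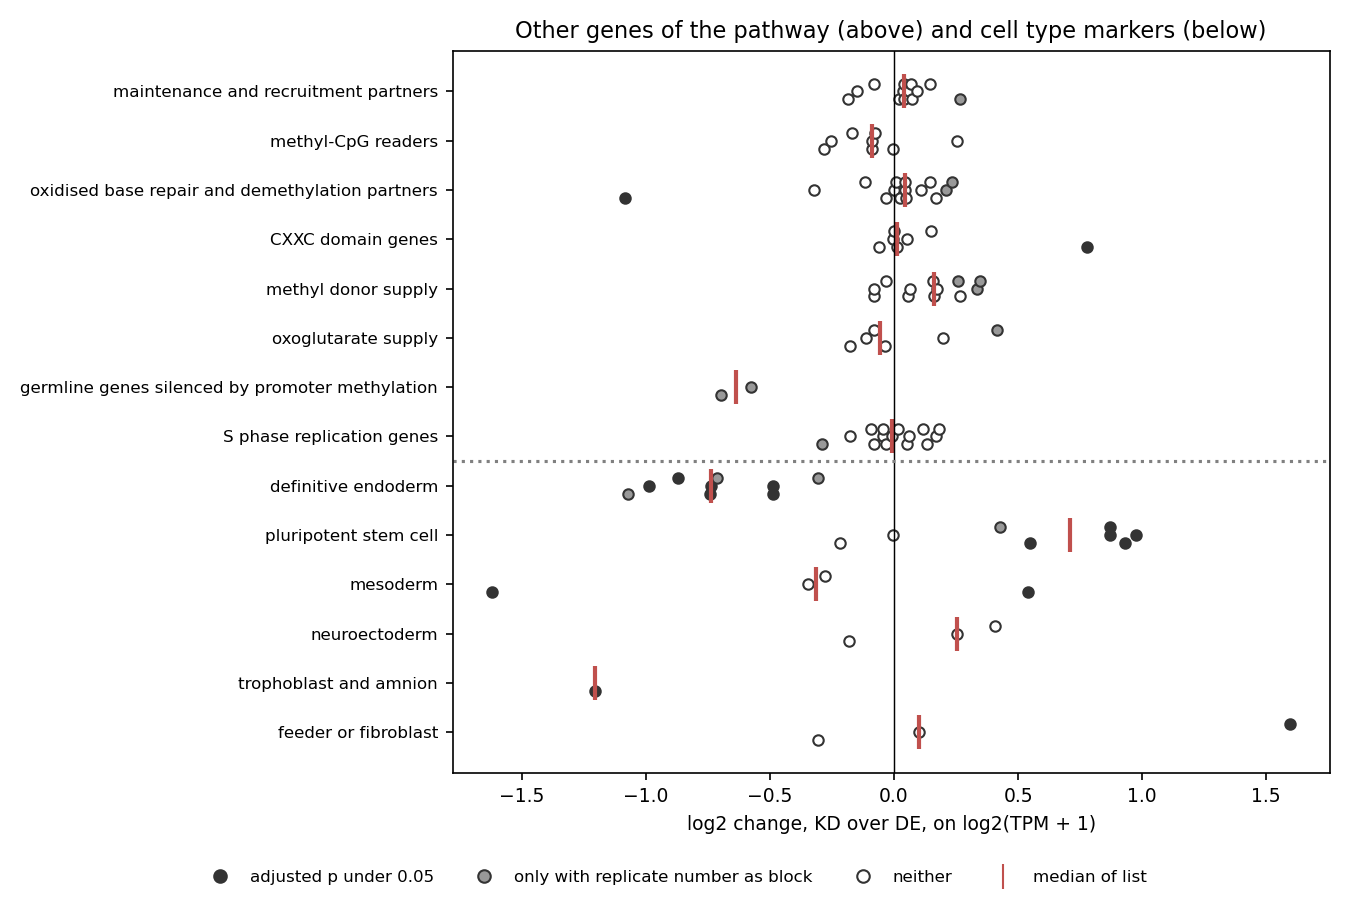
Log2 change of KD over DE on log2(TPM + 1) for each tested gene of the 8 pathway lists (above the dotted line) and of the marker lists (below it); black points passed with group alone, grey points passed only with the replicate number as a block, white points in neither, and red bars are list medians. Pathway genes lie near 0 apart from GADD45G at -1.09, CXXC5 at 0.78 and the 2 germline genes, while endoderm markers lie below 0 and pluripotency markers have a median of 0.71.

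The genes whose profile over the 6 libraries lay nearest to that of DNMT3B were found among 11763 genes with a mean of at least 5 TPM. The measure was the root mean square difference of log2(TPM + 1), each gene centred on its own mean. They were CRMP1, TNIK, LAMC1, TENM4 and BAHD1, at distances from 0.0162 to 0.0320. Their log2 changes lay between 0.50 and 0.55, and the limma adjusted p between 0.0524 and 0.0689, so none of these 5 passed. Because they were picked by profile in the same libraries, changes near that of DNMT3B follow from the choice. CRMP1, a cytosolic phosphoprotein of neurons, had 121, 130.1 and 116 TPM in KD and 87.9, 94.1 and 77.3 TPM in DE. LAMC1, a laminin chain of basement membranes, had 142, 152 and 138 TPM in KD and 102, 114 and 87.8 TPM in DE.

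The 5 genes nearest to TET1 were IRF3, E2F4, NMT1, SMPD4 and KANSL1, at distances from 0.0128 to 0.0187. They include IRF3 and E2F4, transcription factors of the antiviral response and of the cell cycle. The log2 changes of the 5 lay between 0.0037 and 0.02, which likewise follows from their choice by profile. In this profile the lowest library was replicate 3 in each group, where the mitochondrial share was highest.

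**Figure D5:**
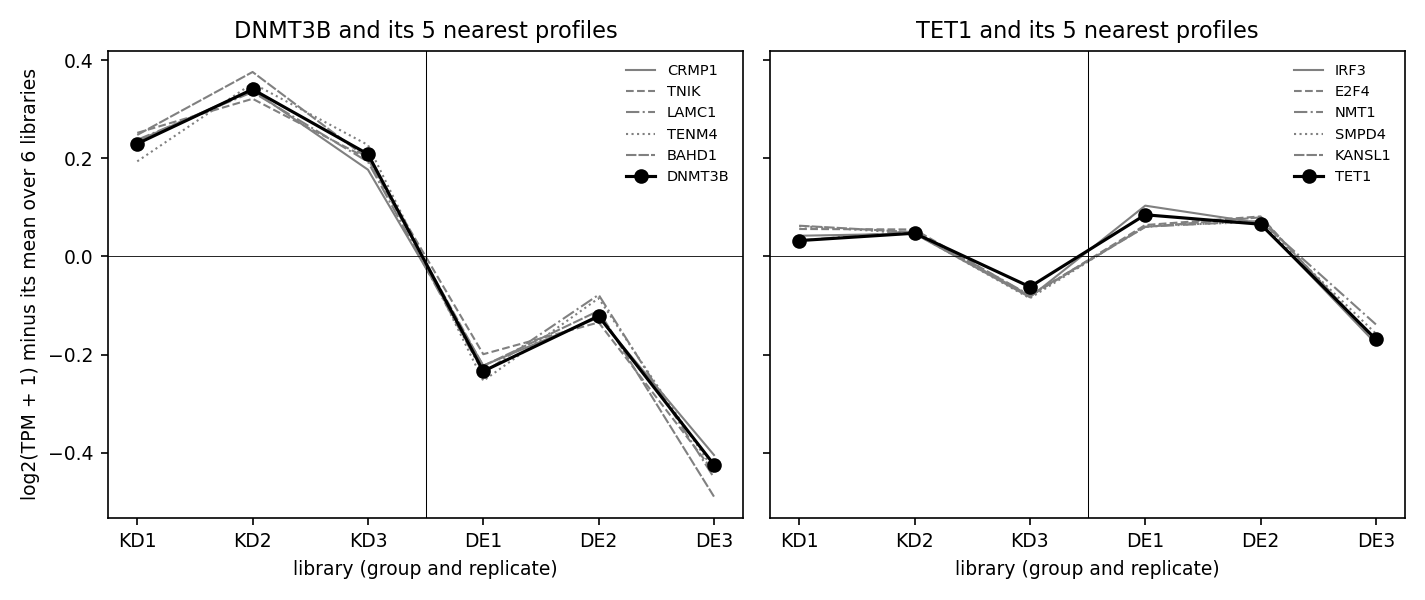
Centred log2(TPM + 1) over the 3 KD and 3 DE libraries for DNMT3B and TET1 (black) and their 5 nearest profiles (grey lines). The DNMT3B profiles are above 0 in all KD libraries and below it in all DE libraries, while the TET1 profiles dip in replicate 3 of each group.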

How the data were processed

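RNA-seq libraries, 3 of KD and 3 of DE, were compared. For 58830 genes the authors deposited TPM, scaled to a common total. HISAT2 2.1.0, featureCounts, DESeq2 and GRCh38 appear, without roles, in the submitters' processing notes. Sources used here do not give the annotation, strand setting or filters. TPM keep no depth, and a larger share of one RNA class lowers all other values. For 37138 symbols matched to GENCODE 29, TPM times exon length fell on whole multiples of 1 constant per library for 88.7% to 89.5% of values under 50 reads (tolerance 0.02), which gave the estimated reads; all 12 member values under 500 reads were whole.

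Genes reaching 1 TPM in 3 or more libraries were tested on log2(TPM + 1) by limma 3.58.1 in R 4.3.3 (group as the term, eBayes with trend, Benjamini-Hochberg over all 17711 genes, threshold 0.05). A fold change on this scale understates that of low genes. Proportions within a library had 2-sided exact permutation tests (scipy 1.17.1). The reads are estimates, so no count model was run.

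The titles number replicates 1 to 3 in both groups. Deviations of same-numbered libraries from their group means had correlations across genes of 0.108, 0.144 and 0.347, each over the limit of 0.1, so values with the number as a block are given where they change a call. KD replicate 1 correlated with DE replicate 2 at 0.121, so the pairing of replicates 1 and 2 rests on the numbers.

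The members, lists and tests were chosen with earlier results of these data known. The rule for names took all members, GATA6-AS1, up to 4 passing genes of each list (or its 2 of highest mean where fewer than 2 passed), 5 nearest profiles for DNMT3B and TET1, and overlapping genes; TDG, DAZL, MAEL and genes that passed only with the block (1 of which is not reported here) were added after their values were seen. Of 133 listed symbols, 132 matched. Alternatives were other pseudocounts, filters, scalings and variance models, the block, a stricter threshold and leaving out libraries.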

Additional observations from a re-analysis of the deposited data

How the results depend on the processing

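Of 17711 genes, 579 passed, and 2215 with the replicate block, among them all 579. The count was 239 with no filter on low values, 106 at a threshold of 0.01, 1735, 1753 and 1682 with quantile normalization, median-ratio scaling and TPM without mitochondrial genes, 1212 without replicate 3 of both groups, and from 87 to 610 without single libraries. The count of members that passed was 1, and 3 with the replicate block or without mitochondrial genes, 2 with quantile or median-ratio scaling or without replicate 3 of both groups, and 0 without any single library, with no filter, without the trend or at a threshold of 0.01. Of the pathway genes 2 passed, 12 with the block, 8 with quantile or median-ratio scaling, 7 without mitochondrial genes, 5 without replicate 3 of both groups, 1 with no filter, 0 at 0.01, and from 0 to 3 without single libraries.

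DNMT3B, DNMT3A, UHRF1 and TET2 kept their direction in every alternative run. Members near 0 did not, and none passed. Without replicate 3 of both groups DNMT1 had a log2 change of -0.0186 and TET1 of -0.0355. Without single libraries TET1 ranged from -0.0695 to 0.0575 and TET3 from -0.123 to 0.0556. TET1 was -0.0013 without KD replicate 1, -0.0088 without KD replicate 2 and -0.0695 without DE replicate 3, and TET3 was 0.0125 without KD replicate 3 and 0.0556 without DE replicate 2. The median over members stayed between -0.07 and 0.06. The difference in DNMT3B share of the pair was 0.959 points (0.779 to 1.13 without single libraries), that in UHRF1 to DNMT1 ratio -0.128 (-0.166 to -0.0940), in TET1 share 0.974 points (0.345 to 1.35) and in DNMT3L to DNMT3B ratio -0.000782 (-0.0010 to -0.00051). With the replicate block, an exact 2-sided permutation of the signs of the 3 pair differences, read on their mean, gave p = 0.25 for the DNMT3B share, 0.25 for the UHRF1 ratio, 0.5 for the TET1 share and 0.25 for the DNMT3L ratio, of which 0.25 is the smallest possible. The median log2 change of all genes stayed between -0.0110 and 0.0060 under other scalings and filters, and was -0.10 without DE replicate 3, where DNMT3B stood at 0.44. Depth limits DNMT3L, with 5 to 12 reads a library, most among the members, and then TET2, with 152 to 246.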
